A study of Rattus norvegicus with 23 samples.

Results

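The 40 genes described here are interferon-stimulated genes, taken from a list of names, and all 40 of the listed names occur among the 20301 genes of the deposited table. The table gives 1 log2 value for each gene in each of 23 libraries of microglia, the resident macrophages of the brain, from Wistar rat pups of both sexes. All pups were operated on postnatal day 7, and cells were isolated with CD11b/c magnetic beads 24 h later. The 6 Sham libraries came from pups with an incision of the neck under isoflurane and no listed injection. The 5 LPS libraries came from pups given Escherichia coli lipopolysaccharide (LPS), 0.1 mg/kg intraperitoneally, 4 h before the same sham operation. The 6 NaCl/HI libraries came from pups given 0.9% NaCl before ligation of the left common carotid artery and 50 min in 8% oxygen, a model of neonatal hypoxia-ischemia (HI). The 6 LPS/HI libraries came from pups given LPS before the same ligation and hypoxia. A Sham or LPS library holds cells of the whole brain of a single pup, whereas an NaCl/HI or LPS/HI library pools the ligated-side hemispheres of 2 pups. HI therefore cannot be told apart from the tissue taken and the pooling in any comparison with Sham or LPS, and LPS against Sham also sets injected against uninjected pups.

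Interferon-stimulated genes are the genes that cells switch on when type I interferon binds the receptor chains IFNAR1 and IFNAR2. The kinases JAK1 and TYK2 then phosphorylate STAT proteins, among them STAT2, which join IRF9 and bind the interferon-stimulated response element (ISRE) in promoters. The products block virus entry, sense foreign nucleic acid, cut RNA or tag proteins, and some, such as IRF7 and USP18, amplify or restrain the pathway itself. LPS acts on the receptor TLR4, which induces interferon beta through the adaptor TRIF, and microglia are known to carry all of this machinery.

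Promoter sequences of these genes were searched for short elements. RefSeq promoters of the rat assembly GRCr8, from 250 bases before to 50 bases after the gene start, were at hand for 31 of the 40 genes. Each of the 31 counted once if any promoter under its symbol matched, whereas all promoters were counted singly. The ISRE core, GAAA then any NN then GAAA, read on both strands, occurred in 18 of those 31 promoters (58.1%) and in 1312 of all 33469 promoters of the same length (3.92%). The element of STAT dimers, TTCNNNGAA, which reads as the same pattern on both strands, occurred in 8 of the 31 (25.8%) and in 8.87% of all promoters. Of the 23 ISRE core matches, some of which overlap one another, 21 lay before the start, and 16 of these began within 100 bases of it. Genes called by limma in any comparison below had the core in 8 of 15 promoters, and those it called in none had it in 10 of 16. Ifnar1, Ifnar2, Stat2, Oasl, Herc6, Parp9 and Ifi35 were called and had no core in this window. A match describes letters and not a bound site. The 7 windows below were chosen, with the matches known, from called genes that hold the core, and give the 180 bases before the start, in the direction of the gene, with core matches on either strand in capitals.
Gbp2, chr2:234005547-234005726, plus strand: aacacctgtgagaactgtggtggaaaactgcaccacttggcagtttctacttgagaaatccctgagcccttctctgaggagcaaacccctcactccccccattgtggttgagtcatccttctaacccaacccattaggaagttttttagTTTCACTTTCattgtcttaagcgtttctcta
Gbp5, chr2:233910819-233910998, plus strand: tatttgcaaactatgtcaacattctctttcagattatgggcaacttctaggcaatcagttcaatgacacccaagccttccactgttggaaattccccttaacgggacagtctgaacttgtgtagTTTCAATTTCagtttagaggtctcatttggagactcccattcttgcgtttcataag
Ifi27, chr6:128355132-128355311, plus strand: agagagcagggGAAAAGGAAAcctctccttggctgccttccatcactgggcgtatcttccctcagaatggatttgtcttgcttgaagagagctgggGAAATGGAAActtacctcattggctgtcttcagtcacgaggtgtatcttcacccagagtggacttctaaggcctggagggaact
Irf7, chr1:205800024-205800203, minus strand: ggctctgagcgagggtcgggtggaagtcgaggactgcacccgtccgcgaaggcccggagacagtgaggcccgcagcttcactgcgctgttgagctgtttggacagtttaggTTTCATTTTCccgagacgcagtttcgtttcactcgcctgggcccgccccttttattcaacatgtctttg
Ifit3, chr1:241527146-241527325, plus strand: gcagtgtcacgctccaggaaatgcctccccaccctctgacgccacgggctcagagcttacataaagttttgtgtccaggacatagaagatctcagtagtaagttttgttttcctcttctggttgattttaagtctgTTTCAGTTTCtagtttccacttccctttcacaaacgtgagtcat
Oas1a, chr12:41330286-41330465, plus strand: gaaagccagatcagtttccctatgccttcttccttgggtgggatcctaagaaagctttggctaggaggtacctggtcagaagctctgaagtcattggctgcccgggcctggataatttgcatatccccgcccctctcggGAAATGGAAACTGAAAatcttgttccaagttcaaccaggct
Ifitm3, chr1:205541759-205541938, minus strand: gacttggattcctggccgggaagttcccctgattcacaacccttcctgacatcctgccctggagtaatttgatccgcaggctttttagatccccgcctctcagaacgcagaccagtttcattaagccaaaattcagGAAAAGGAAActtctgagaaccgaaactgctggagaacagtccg
In Gbp2, Gbp5, Irf7 and Ifit3 the core stood on the strand opposite to the gene, and in Ifi27, Oas1a and Ifitm3 on the same strand. The matches began 31 bases before the start in Gbp2, 56 in Gbp5, 69 in Irf7 and 44 in both Ifit3 and Ifitm3. Ifi27 had 2 matches, 169 and 84 bases before the start, and Oas1a had 2 that overlap, 41 and 35 bases before it.

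The values were checked for the labelled cell type. Of 14 microglial markers, 13 had mean log2 values from 7.29 for Olfml3 to 16.46 for Csf1r, with P2ry12 at 13.92 and Cx3cr1 at 15.55, whereas Siglech was at -1.05. Markers of other cells also gave values. Their means ran from 5.69 to 13.91 over 10 genes of border-associated macrophages, from 8.18 to 12.96 over 11 endothelial genes, from 0.33 to 11.79 over 16 neutrophil genes and from -0.63 to 7.97 over 10 genes of T and NK cells. These are rlog values, which draw weakly expressed genes toward their mean and are not per length, so they rank neither genes nor cell types. No counts enter this account, and how deeply each library was sequenced is unknown. Library medians lay between 7.75 and 7.82.

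Over the 40 genes, Sham had the lowest mean and the treated groups overlapped one another. Each gene was centred on the mean of its 4 group means, and the centred values were averaged per library. This mean was -0.14 ± 0.06 in Sham (SD, n = 6), 0.06 ± 0.15 in LPS (n = 5), 0.01 ± 0.10 in NaCl/HI (n = 6) and 0.07 ± 0.05 in LPS/HI (n = 6). The LPS/HI libraries, from 0 to 0.14, all lay above the Sham libraries, from -0.19 to -0.06. No gene had its highest group mean in Sham, against 34.1% of all genes. LPS held the highest mean for 21 of the 40 genes, against 28.9% of all genes, LPS/HI for 12, against 19.8%, and NaCl/HI for 7, against 17.2%, a share near its background. Sham held the lowest mean for 23, against 27.4% of all genes.

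**Figure D1:**
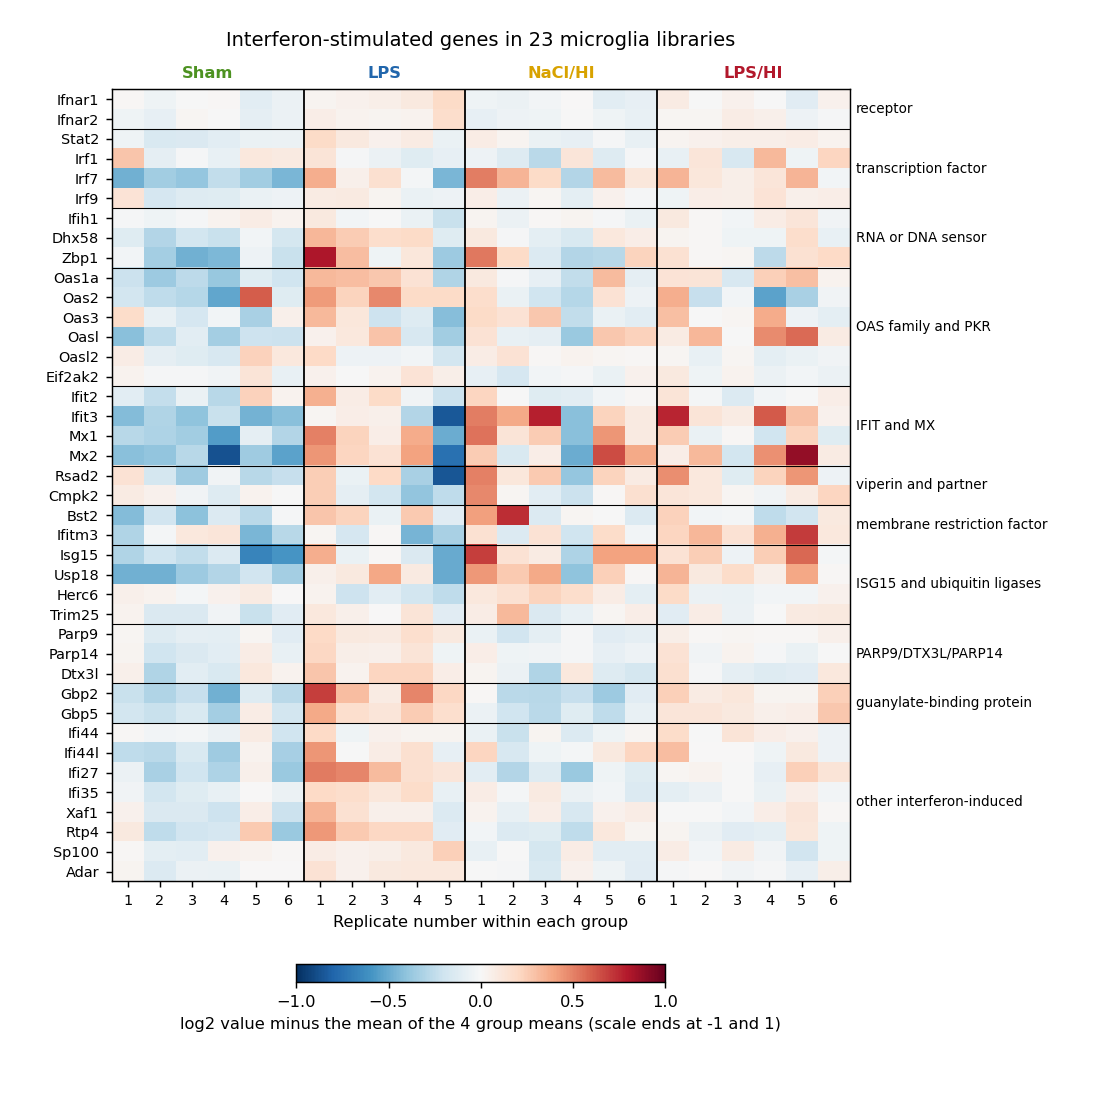
Heatmap of the 40 genes (one line each, grouped by role) in 23 libraries (columns, by group and replicate number). Colour is the log2 value minus the mean of the 4 group means, from -1 to 1. LPS replicate 1 is above that mean for 40 of 40 genes, and LPS replicate 5 and NaCl/HI replicate 4 are blue for Irf7, Ifit3, Mx2 and Usp18 within groups that are mostly red.

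A pair of libraries stood apart from their groups. Both were picked out by their values of these same genes, so an adjusted p without them rests on that choice. LPS replicate 5 had a mean of -0.17, within the Sham range, and was the lowest LPS library for 25 of the 40 genes. It lay at or below the highest Sham library for 32 genes but above every Sham library for the other 8, which were Ifnar1, Ifnar2, Parp9, Gbp2, Gbp5, Ifi27, Sp100 and Adar. NaCl/HI replicate 4 had a mean of -0.15 and was the lowest of its group for 20 genes, at or below the highest Sham library for 35. LPS replicate 1 was the highest of its group for 30 genes, with a mean of 0.26. Differences from Sham that passed or failed without LPS replicate 5 or NaCl/HI replicate 4 in their own group are given below with and without it.

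**Figure D2:**
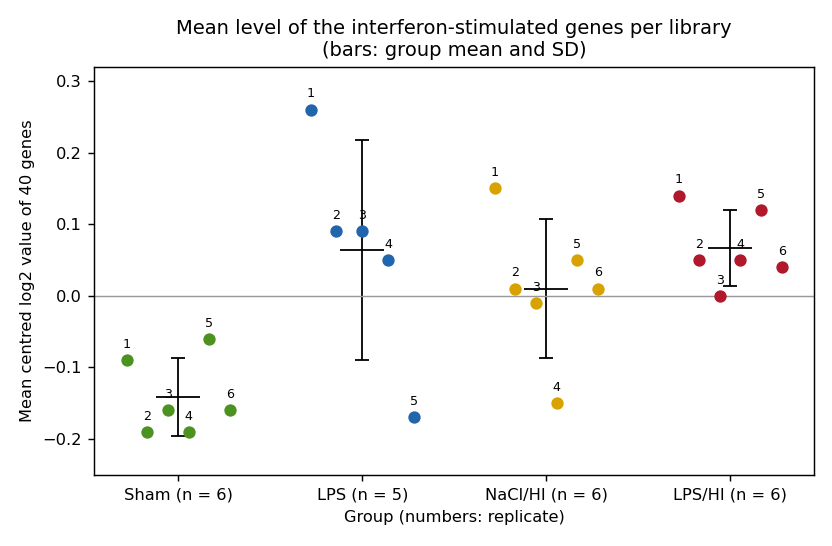
Mean centred log2 value of the 40 genes (y axis) in each library, by group (x axis). Points are libraries with their replicate number, and bars give the group mean and SD. LPS replicate 5 (-0.17) and NaCl/HI replicate 4 (-0.15) lie in the Sham range of -0.19 to -0.06, and all LPS/HI libraries are above it.

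LPS alone was followed by higher values of a set of 12 genes against Sham. They were the receptor chain Ifnar2, the transcription factors Stat2 and Irf7, the sensor Dhx58, the antiviral enzymes Oas1a and Adar, Parp9, the guanylate-binding GTPases Gbp2 and Gbp5, and Ifi44l, Ifi27 and Ifi35. The differences ran from 0.11 for Ifnar2 to 0.63 for Gbp2 on the log2 scale, a fold of 1.08 to 1.55. With limma at an adjusted p under 0.05, 12 of the 40 genes were higher and 0 lower, where 10.2% of all genes were called higher and 7.56% lower. At an unadjusted p under 0.05 these counts were 24 higher and 1 lower, with 15.8% and 16.1% of all genes. The exact Wilcoxon rank-sum test called 9 higher and 0 lower at an adjusted p under 0.05, with 10.4% of all genes higher. These 9 included Ifnar1 and Sp100, which limma did not call. The limma calls Stat2, Irf7, Oas1a, Ifi44l and Ifi35 did not pass it (Wilcoxon adjusted p from 0.0697 to 0.143). All LPS libraries lay above all Sham libraries for 8 genes, as they did for 8.05% of all genes. The median difference of the 40 genes was 0.19, against -0.01 over all genes, and 32 of the 40 were above 0. Without LPS replicate 5, 18 genes were called higher, with 10.5% of all genes, and Zbp1, Mx1, Mx2, Usp18, Parp14, Xaf1 and Rtp4 joined the list while Ifnar2, at 0.09, left it (limma adjusted p = 0.0984). Without Sham replicate 2 the count was 9, all higher, and without LPS replicate 1 it was 8 higher and 1 lower. The share of all genes in these fits is not given here, so these counts have no background beside them. No difference reached a fold of 2.

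HI without LPS gave 0 calls against Sham by limma at an adjusted p under 0.05, where 0.00985% of all genes were called higher. The 5 largest differences, none of which passed, were those of Ifit3, Isg15, Mx2, Irf7 and Usp18. Ifit3 differed by 0.64 ± 0.18 (SE, limma adjusted p = 0.152), Mx2 by 0.59 ± 0.21 (adjusted p = 0.204), Isg15 by 0.59 ± 0.16 (adjusted p = 0.142), Irf7 by 0.58 ± 0.12 (adjusted p = 0.0837) and Usp18 by 0.51 ± 0.14 (adjusted p = 0.137). At an unadjusted p under 0.05, limma called 12 of the 40 higher and 0 lower, against 7.33% of all genes higher and 7.47% lower. The exact Wilcoxon test gave 11 higher and 0 lower unadjusted, against 6.51% of all genes higher. The exact Wilcoxon test called 0 at an adjusted p under 0.05, but the smallest adjusted p of any gene was 0.213, so no member could pass it. Of 23 leave-outs 1 moved this count, that of the library picked out above by its low values of these genes. With all libraries kept, 19 residual degrees of freedom or a fit of only the groups compared gave 1 call each. Without NaCl/HI replicate 4, limma called Irf7, Ifit3, Mx1, Isg15 and Usp18 higher, 5 of the 40 against 1.9% of all genes, with differences of 0.60 to 0.77. The median of the 40 genes was 0.07, against -0.01 over all genes.

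After LPS and HI together, 11 of the 40 genes were higher than in Sham and 0 lower, where 5.3% of all genes were called higher and 3.48% lower. They were Stat2, Irf7, Oas1a, Oasl, Ifit3, Mx2, Ifitm3, Isg15, Usp18, Gbp2 and Gbp5. The differences ran from 0.14 for Stat2 to 0.74 for Mx2, a fold of 1.10 to 1.67. At an unadjusted p under 0.05 limma called 17 higher and 0 lower, against 14% of all genes higher. The exact Wilcoxon test called 10 higher at an adjusted p under 0.05, against 5.68% of all genes. The groups did not overlap for 8 genes, against 3.85% of all genes. The median of the 40 was 0.13, against 0 over all genes, and 35 were above 0. LPS against Sham and LPS/HI against Sham share the Sham libraries. Their calls had Stat2, Irf7, Oas1a, Gbp2 and Gbp5 in common, 5 of 12 and 5 of 11. The calls of Irf7, Oasl, Gbp2 and Gbp5 held whichever library was left out. Leaving out LPS/HI replicate 4 or 5 left 5 calls, LPS/HI replicate 2 left 6 and Sham replicate 6 left 7. Whether calls over all genes fell likewise in these fits is not given here.

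**Figure D3:**
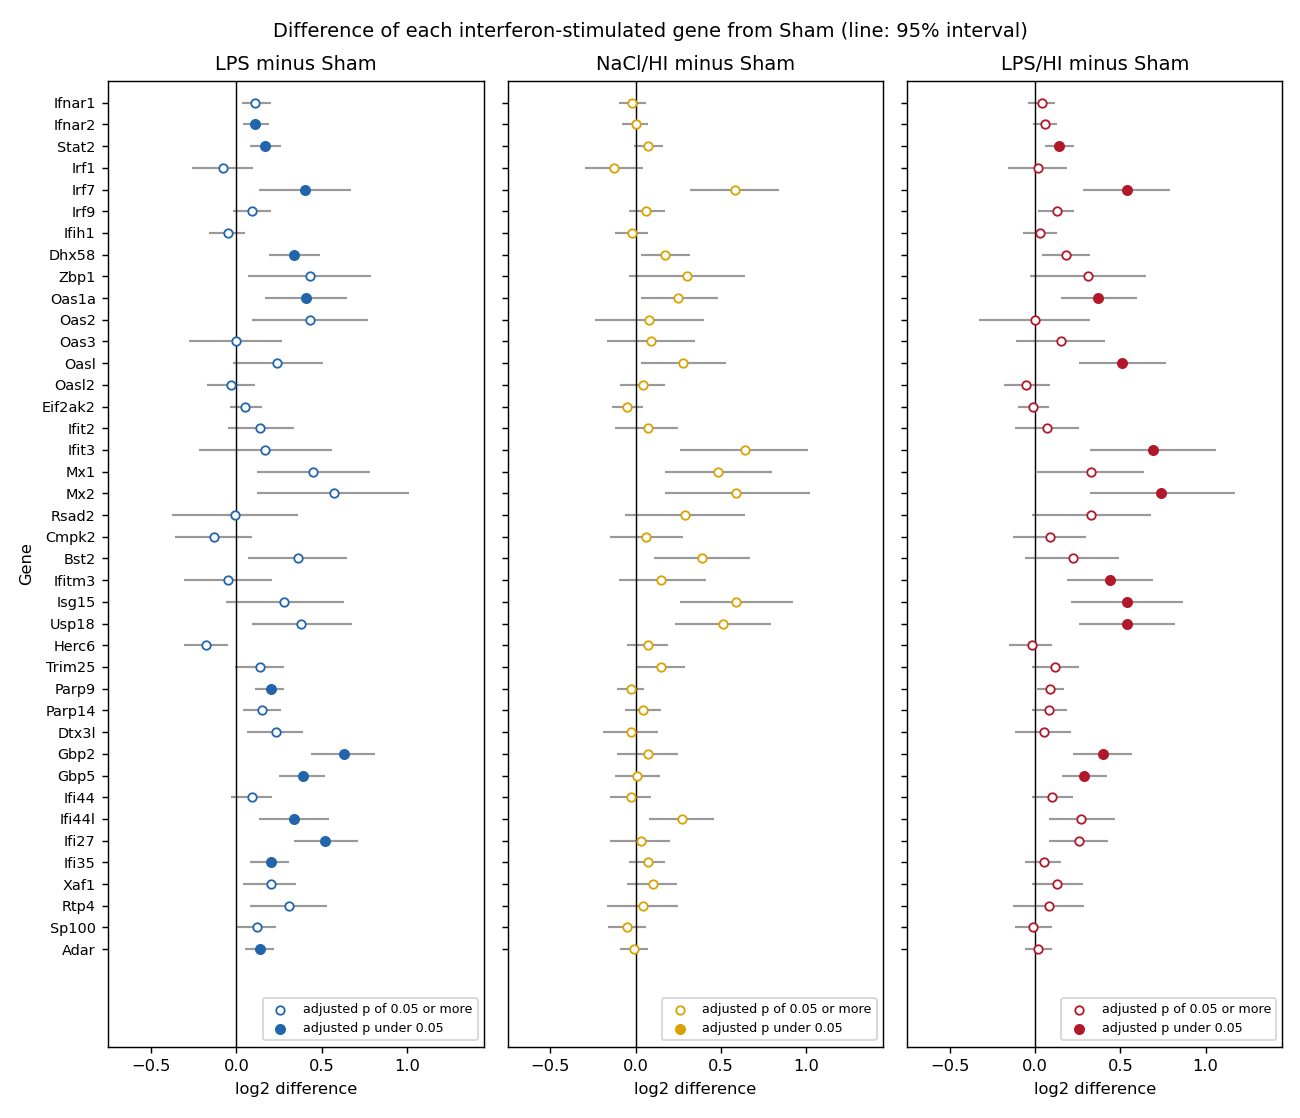
Log2 difference from Sham (x axis) of each of the 40 genes (y axis) in LPS, NaCl/HI and LPS/HI, with 95% intervals. Filled points have a limma adjusted p under 0.05: 12 in LPS, 0 in NaCl/HI and 11 in LPS/HI. Gbp2, Gbp5 and Ifi27 are near 0 in NaCl/HI (0.07, 0.01 and 0.03), whereas Irf7, Ifit3 and Isg15 are at 0.58, 0.64 and 0.59.

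LPS/HI against LPS gave 1 call, Ifitm3, which was higher in LPS/HI, where 1.22% of all genes were called higher and 0.719% lower. At an unadjusted p under 0.05, 4 genes were higher and 10 lower in LPS/HI, with 8.58% and 6.88% of all genes. The exact Wilcoxon test called 2 higher and 4 lower unadjusted, with 7.87% and 6.59% of all genes, and could call none adjusted, since the smallest adjusted p of any gene was 0.104. LPS/HI against NaCl/HI, both pools of hemispheres, gave 0 calls by limma, where 0.153% of all genes were called higher. Here 6 genes were higher and 0 lower at an unadjusted p under 0.05, against 6.47% of all genes higher. The exact Wilcoxon test called 6 higher and 1 lower unadjusted, with 6.31% and 3.87% of all genes, and could call none adjusted, where the smallest adjusted p was 0.162. Parp9, Gbp2 and Gbp5 did not overlap between LPS/HI and NaCl/HI, 3 of 40 against 0.901% of all genes.

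LPS against NaCl/HI gave 7 higher members, where 5.32% of all genes were called higher, and 1 lower, with 3.66% of all genes. Ifnar1, Ifnar2, Parp9, Gbp2, Gbp5, Ifi27 and Adar were higher in LPS, and Herc6 was lower. The groups did not overlap for 8 genes, higher in LPS, against 4.79% of all genes. The exact Wilcoxon test called 12 higher and 1 lower unadjusted, with 10.3% and 7.97% of all genes. It could call none adjusted, since genes without overlap had an adjusted p of 0.0593. The limma count was 5 without replicate 1 or 4 of LPS or replicate 3 or 6 of NaCl/HI. It was 11 when NaCl/HI replicate 4 was left out. For these leave-outs too, the share of all genes in this comparison is not given. Ifnar1 and Ifnar2 were only just past the threshold, with limma adjusted p of 0.0497 and 0.0451.

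The interaction asked whether the difference that LPS made was the same with HI as without it. It is LPS/HI minus NaCl/HI, minus the difference of LPS from Sham. Both HI groups were injected, whereas LPS minus Sham sets injected against uninjected pups. The interaction therefore cannot be told apart from effects of the injection itself, the tissue taken or the pooling. No member passed by limma at an adjusted p under 0.05, where 0.365% of all genes were called with a positive and 0.719% with a negative interaction. At an unadjusted p under 0.05, 0 were positive and 9 negative, against 7.65% and 7.44% of all genes. The 9 were Irf7, Dhx58, Oas2, Mx1, Bst2, Gbp2, Ifi44l, Ifi27 and Ifi35. Of the 40 interactions 32 were below 0, with a median of -0.11 against 0.01 over all genes. The smallest adjusted p was that of Dhx58 (0.112), which was 0.34 ± 0.07 higher in LPS than in Sham and in LPS/HI 0.01 ± 0.07 above NaCl/HI (SE). The interval of its interaction ran from -0.54 to -0.12. Without LPS replicate 5 the interaction of Dhx58 passed, the 1 call among the leave-outs.

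**Figure D4:**
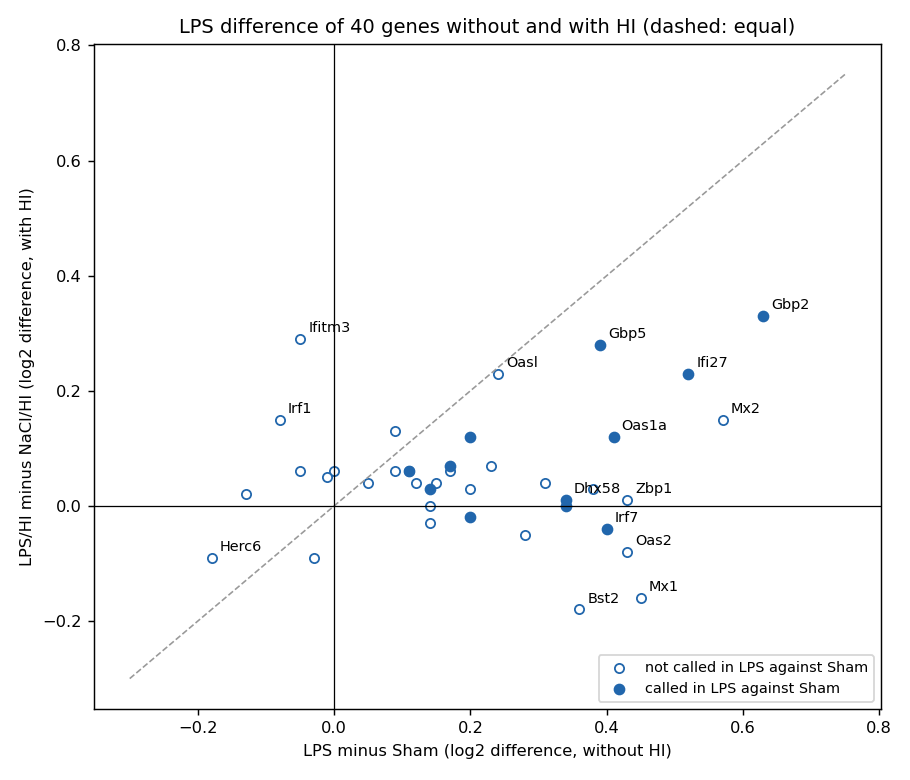
Log2 difference of LPS from Sham (x axis) against that of LPS/HI from NaCl/HI (y axis) for the 40 genes. The dashed line marks equal differences, and filled points were called in LPS against Sham. Gbp2 (0.63 and 0.33), Gbp5 (0.39 and 0.28) and Ifi27 (0.52 and 0.23) are above 0 on both axes, and 32 of the 40 points lie below the dashed line.

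The receptor chains differed little. Ifnar1 had log2 values of 12.14, 12.16, 12.17, 12.21 and 12.31 in the LPS libraries, and a lowest, median and highest value of 12.01, 12.09 and 12.13 in Sham, 12.01, 12.07 and 12.12 in NaCl/HI and 12, 12.14 and 12.20 in LPS/HI. Every LPS library was above every Sham and NaCl/HI library, but the difference from Sham, 0.11 ± 0.04 (SE), had a limma adjusted p of 0.0642. Ifnar2 read 11.24, 11.21, 11.20, 11.21 and 11.35 in LPS. It read 11.08, 11.12 and 11.19 in Sham, 11.09, 11.13 and 11.17 in NaCl/HI and 11.12, 11.19 and 11.25 in LPS/HI (lowest, median, highest). LPS was again above Sham and NaCl/HI without overlap, by 0.11 ± 0.04 and 0.12 ± 0.04 (limma adjusted p = 0.0345 and 0.0451). The call against Sham was lost without Sham replicate 1, 2, 5 or 6 or LPS replicate 1 or 5. The calls against NaCl/HI held in 3 of the 23 leave-outs for Ifnar1 and 7 of 23 for Ifnar2, and both were lost in 5 of 9 other settings.

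Among the transcription factors, Stat2 and Irf7 rose in both LPS groups and Irf9 and Irf1 did not pass. Stat2, a part of the interferon complex, read 11.33, 11.23, 11.18, 11.22 and 11.07 in LPS. It read 10.98, 11.05 and 11.09 in Sham, 11.05, 11.10 and 11.21 in NaCl/HI and 11.16, 11.19 and 11.21 in LPS/HI (lowest, median, highest). LPS replicate 5 fell among the Sham libraries and all LPS/HI libraries lay above them. The difference was 0.17 ± 0.04 in LPS and 0.14 ± 0.04 in LPS/HI (limma adjusted p = 0.00939 and 0.032). The LPS/HI call was lost without Sham replicate 2, 3 or 4 or LPS/HI replicate 2, 3, 4 or 5. It was also lost with median centring and with the replicate number as a block (limma adjusted p = 0.0698 with the block).

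Irf7, which amplifies interferon production, read 7.84, 7.53, 7.64, 7.46 and 7.02 in LPS. It read 7, 7.11 and 7.23 in Sham, 7.19, 7.73 and 7.99 in NaCl/HI and 7.45, 7.60 and 7.82 in LPS/HI (lowest, median, highest). LPS replicate 5 and NaCl/HI replicate 4 were the only treated libraries within the Sham range. The difference from Sham was 0.40 ± 0.13 in LPS, 0.58 ± 0.12 in NaCl/HI and 0.54 ± 0.12 in LPS/HI (limma adjusted p = 0.0377, 0.0837 and 0.0128). Without NaCl/HI replicate 4 the difference of NaCl/HI was 0.68 ± 0.11 (adjusted p = 0.00602). The LPS call was lost without Sham replicate 1, 2, 3, 5 or 6 or LPS replicate 1, 2, 3 or 4, and without LPS replicate 5 the difference was 0.52 ± 0.12 (adjusted p = 0.00524).

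Irf9, the DNA-binding part of the interferon complex, read 10.14, 10.15, 10.09, 9.99 and 10.01 in LPS. It read 9.89, 9.96 and 10.20 in Sham, 9.96, 10.07 and 10.13 in NaCl/HI and 10.02, 10.12 and 10.20 in LPS/HI. The groups overlapped, and the difference of LPS/HI from Sham was 0.13 ± 0.05 (limma adjusted p = 0.113), which passed without Sham replicate 1, the highest Sham library. Irf1, which responds to interferon gamma as well, read 11.95, 11.81, 11.76, 11.70 and 11.74 in LPS. It read 11.73, 11.86 and 12.10 in Sham, 11.55, 11.73 and 11.94 in NaCl/HI and 11.66, 11.86 and 12.15 in LPS/HI. All groups overlapped, and the interval of LPS minus Sham ran from -0.26 to 0.10.

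Of the nucleic acid sensors, Dhx58, the RIG-I-like receptor LGP2, rose in LPS. It read 9.52, 9.44, 9.36, 9.38 and 9.06 in LPS. It read 8.89, 9.01 and 9.16 in Sham, 9.03, 9.21 and 9.29 in NaCl/HI and 9.11, 9.17 and 9.36 in LPS/HI. LPS libraries other than replicate 5 lay above all Sham libraries, and the difference was 0.34 ± 0.07 (limma adjusted p = 0.00269), against 0.18 ± 0.07 in LPS/HI (adjusted p = 0.101). Ifih1, which encodes the RNA sensor MDA5, had means of 9.38 ± 0.04 in Sham, 9.32 ± 0.12 in LPS, 9.35 ± 0.04 in NaCl/HI and 9.41 ± 0.07 in LPS/HI (SD), within 0.09 of one another. Zbp1, a sensor of Z-form nucleic acid, ranged from 6.52 to 7.69 in LPS against 6.4 to 6.85 in Sham (limma adjusted p = 0.0861), and its difference was 0.56 without LPS replicate 5 (adjusted p = 0.0262).

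The OAS family makes the short adenylate chains that switch on RNase L. Oas1a read 6.79, 6.77, 6.73, 6.61 and 6.16 in LPS. It read 6.08, 6.22 and 6.34 in Sham, 6.22, 6.41 and 6.78 in NaCl/HI and 6.30, 6.59 and 6.76 in LPS/HI. LPS replicate 5 lay among the Sham libraries and the other 4 above them. The difference was 0.41 ± 0.11 in LPS and 0.37 ± 0.11 in LPS/HI (limma adjusted p = 0.0161 and 0.0361). The LPS call was lost without LPS replicate 2, and the LPS/HI call without Sham replicate 1, 2, 3, 4 or 6 or LPS/HI replicate 2, 4 or 5.

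Oasl, an OAS-like protein that enhances RNA sensing, read 7.58, 7.64, 7.82, 7.38 and 7.19 in LPS. It read 7.12, 7.30 and 7.43 in Sham, 7.17, 7.57 and 7.81 in NaCl/HI and 7.53, 7.74 and 8.10 in LPS/HI. Every LPS/HI library was above every Sham library, by 0.51 ± 0.12 in the mean (limma adjusted p = 0.015). The differences of LPS and NaCl/HI, 0.24 ± 0.13 and 0.28 ± 0.12, did not pass (adjusted p = 0.197 and 0.302). Oas2, Oas3, Oasl2 and the RNA-activated kinase Eif2ak2 (PKR) passed by limma in no comparison. Oas2 had its highest mean in LPS, 7.47 ± 0.14, against 7.04 ± 0.38 in Sham (SD), where replicate 5 alone reached 7.77.

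Ifit3, an adaptor of the IFIT complex that binds viral RNA, had means of 6.56 ± 0.09 in Sham, 6.74 ± 0.39 in LPS, 7.2 ± 0.41 in NaCl/HI and 7.26 ± 0.30 in LPS/HI (SD). All LPS/HI libraries lay above Sham, by 0.69 ± 0.18 (SE, limma adjusted p = 0.0219), a call lost without LPS/HI replicate 4. The dynamin-like GTPase Mx2, with means of 8.67 ± 0.21, 9.24 ± 0.49, 9.26 ± 0.41 and 9.41 ± 0.37 in the same order (SD), had the largest difference of LPS/HI from Sham, 0.74 ± 0.21 (SE, adjusted p = 0.0294). That call was lost without Sham replicate 4 or 6 or LPS/HI replicate 2, 4 or 5. Mx1 differed by 0.45 in LPS, 0.48 in NaCl/HI and 0.33 in LPS/HI and passed in none (adjusted p = 0.0565, 0.181 and 0.174). Without LPS replicate 5 the difference of LPS was 0.60 for Mx1 (limma adjusted p = 0.00609) and 0.78 for Mx2 (adjusted p = 0.00901), and without NaCl/HI replicate 4 that of NaCl/HI was 0.60 for Mx1 (adjusted p = 0.0276) and 0.77 for Ifit3 (adjusted p = 0.0206). Ifit2 lay within 0.14 of Sham in all 3 groups. Rsad2 (viperin) and its neighbour Cmpk2, both enzymes acting on nucleotides, passed by limma in no comparison, with LPS minus Sham at -0.01 and -0.13 and LPS/HI minus Sham at 0.33 and 0.09.

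Of the membrane factors, Ifitm3, which blocks fusion of viruses in endosomes, was called in LPS/HI. Its values were 7.04, 6.85, 7.03, 6.55 and 6.69 in LPS and 6.56, 6.87 and 7.14 in Sham (lowest, median, highest). They were 6.82, 7.08 and 7.2 in NaCl/HI and 7.12, 7.29 and 7.72 in LPS/HI. All LPS/HI libraries were above all LPS libraries, by 0.49 ± 0.13 (limma adjusted p = 0.0458), while LPS and Sham overlapped. The difference of LPS/HI from Sham was 0.44 ± 0.12 (adjusted p = 0.0277). The call against LPS was lost in 14 of the 23 leave-outs, and that against Sham without Sham replicate 1, 5 or 6 or LPS/HI replicate 2, 4 or 5. Bst2 (tetherin), which holds budding virus at the cell surface, differed from Sham by 0.36 in LPS, 0.39 in NaCl/HI and 0.22 in LPS/HI and passed in none.

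Isg15 is a ubiquitin-like protein that is attached to other proteins, and Usp18 removes it and also restrains signalling at IFNAR2. Isg15 read 5.24, 4.81, 4.89, 4.73 and 4.37 in LPS. It read 4.22, 4.61 and 4.74 in Sham, 4.57, 5.15 and 5.57 in NaCl/HI and 4.83, 5.07 and 5.45 in LPS/HI. The LPS/HI libraries lay above all Sham libraries, by 0.54 ± 0.16 (limma adjusted p = 0.0361), and LPS, by 0.28 ± 0.17, overlapped Sham (adjusted p = 0.248). The call was lost without Sham replicate 1, 5 or 6 or LPS/HI replicate 2, 4 or 5.

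Usp18 read 6.65, 6.70, 6.99, 6.69 and 6.10 in LPS. It read 6.12, 6.25 and 6.41 in Sham, 6.20, 6.85 and 7.03 in NaCl/HI and 6.61, 6.74 and 6.99 in LPS/HI. As with Irf7, only LPS replicate 5 and NaCl/HI replicate 4 of the treated libraries lay no higher than the highest Sham library. The difference of LPS/HI from Sham was 0.54 ± 0.14 (limma adjusted p = 0.0199), lost without LPS/HI replicate 5, and that of LPS 0.38 ± 0.14 (adjusted p = 0.0665). Without LPS replicate 5 the latter was 0.51 (adjusted p = 0.0102), and without NaCl/HI replicate 4 the difference of NaCl/HI was 0.62 (adjusted p = 0.0138) for Usp18 and 0.70 (adjusted p = 0.0213) for Isg15.

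Herc6, the ligase that attaches ISG15 in rodents, went the other way. It read 8.61, 8.37, 8.47, 8.39 and 8.32 in LPS. It read 8.56, 8.62 and 8.66 in Sham, 8.48, 8.71 and 8.80 in NaCl/HI and 8.51, 8.55 and 8.77 in LPS/HI. LPS replicate 1 overlapped the other groups and the remaining LPS libraries lay below them. Herc6 was 0.25 ± 0.06 lower in LPS than in NaCl/HI (limma adjusted p = 0.0145), and the difference of LPS from Sham, -0.18 ± 0.06, was at an adjusted p of 0.0503, passing without LPS replicate 1, NaCl/HI replicate 3, 4 or 6 or LPS/HI replicate 1. Trim25, a ubiquitin ligase of RIG-I signalling, was between 0.12 and 0.15 above Sham in all 3 groups and passed in none.

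Parp9, Dtx3l and Parp14 work together in ADP-ribosylation and ubiquitination after interferon. Parp9 read 11.17, 11.07, 11.06, 11.14 and 11.07 in LPS. It read 10.84, 10.87 and 10.99 in Sham, 10.78, 10.88 and 10.96 in NaCl/HI and 10.98, 10.99 and 11.03 in LPS/HI. The LPS libraries lay above all libraries of the other 3 groups, and LPS/HI lay above NaCl/HI without overlap. The difference of LPS from Sham was 0.20 ± 0.04 (limma adjusted p = 0.00167) and from NaCl/HI 0.23 ± 0.04 (adjusted p = 0.000827). Dtx3l and Parp14 differed by 0.23 ± 0.08 and 0.15 ± 0.05 between LPS and Sham (adjusted p = 0.058 and 0.059), and without LPS replicate 5 Parp14 passed at 0.18 (adjusted p = 0.03).

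The guanylate-binding proteins, GTPases that attack membranes of intracellular microbes, included the gene with the largest difference of LPS from Sham, Gbp2. Gbp2 read 11.40, 11.02, 10.79, 11.20 and 10.92 in LPS. It read 10.23, 10.46 and 10.58 in Sham, 10.35, 10.46 and 10.72 in NaCl/HI and 10.74, 10.81 and 10.95 in LPS/HI. Neither LPS nor LPS/HI overlapped Sham or NaCl/HI, and Sham and NaCl/HI overlapped. Gbp2 was 0.63 ± 0.09 above Sham in LPS (limma adjusted p = 4.82e-05) and 0.40 ± 0.09 in LPS/HI (adjusted p = 0.00849). The difference of LPS/HI from NaCl/HI was 0.33 ± 0.09 (adjusted p = 0.107).

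Gbp5, which also promotes inflammasome assembly, read 9.86, 9.65, 9.60, 9.74 and 9.65 in LPS. It read 9.14, 9.30 and 9.56 in Sham, 9.21, 9.32 and 9.42 in NaCl/HI and 9.53, 9.59 and 9.75 in LPS/HI. LPS was above all Sham libraries, and LPS/HI above all but Sham replicate 5. The differences from Sham were 0.39 ± 0.07 in LPS and 0.29 ± 0.06 in LPS/HI (limma adjusted p = 0.000332 and 0.00888). Against NaCl/HI, LPS/HI was 0.28 ± 0.06 higher (adjusted p = 0.0606), which passed without Sham replicate 5, and the difference of NaCl/HI from Sham was 0.01 with an interval from -0.12 to 0.14.

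**Figure D5:**
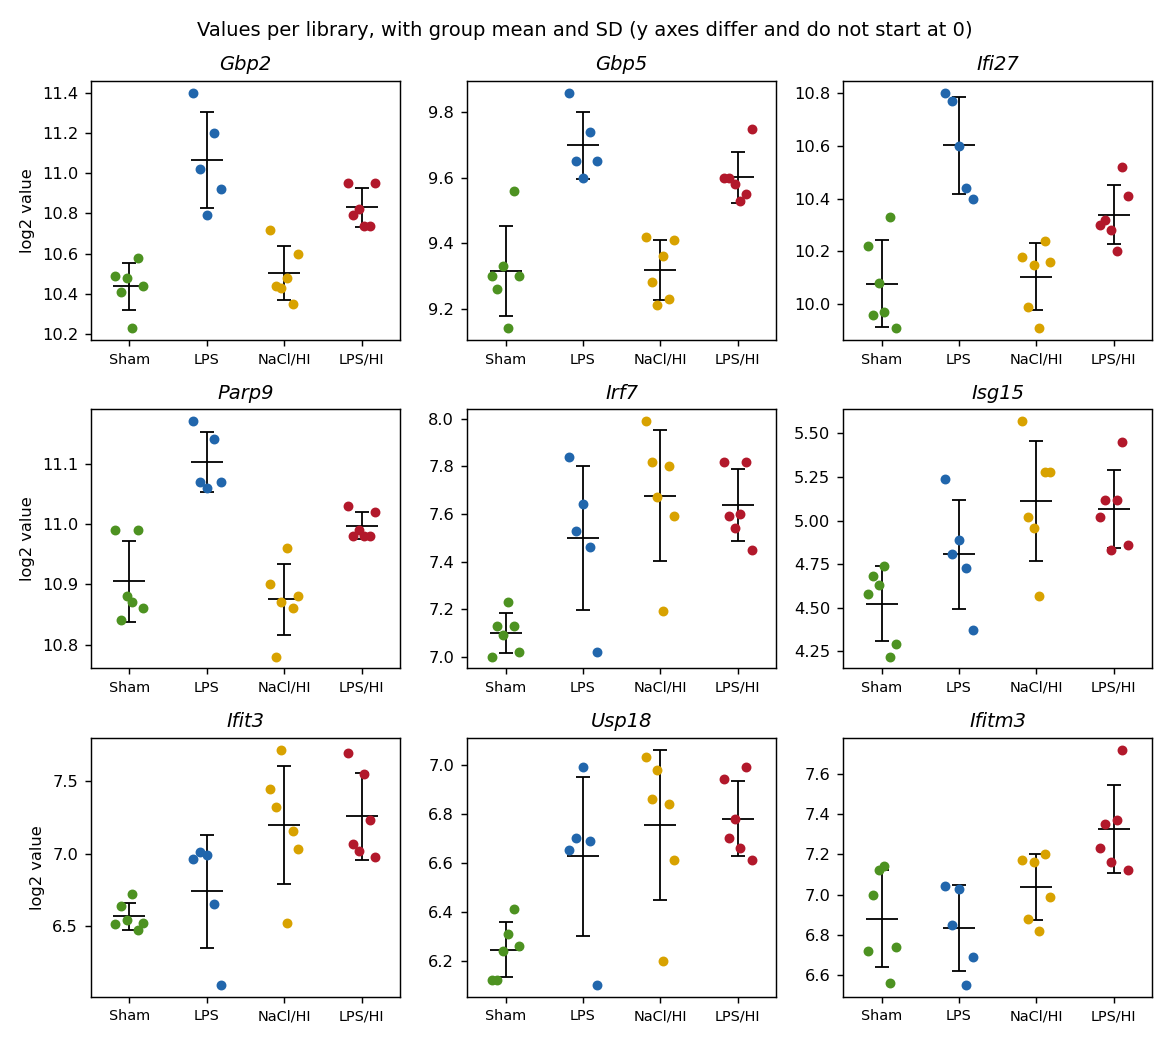
Log2 values (y axes, which differ and do not start at 0) of 9 genes in each library, by group, with group mean and SD. For Gbp2, Ifi27 and Parp9 all LPS libraries are above all Sham and NaCl/HI libraries, whereas for Irf7 and Usp18 one LPS and one NaCl/HI library lie no higher than the highest Sham library.

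Of the remaining genes, Ifi27, a small mitochondrial membrane protein, was high in all LPS libraries. It read 10.80, 10.77, 10.60, 10.44 and 10.40 in LPS. It read 9.91, 10.03 and 10.33 in Sham, 9.91, 10.16 and 10.24 in NaCl/HI and 10.20, 10.31 and 10.52 in LPS/HI. LPS was above Sham and NaCl/HI without overlap, by 0.52 ± 0.09 and 0.50 ± 0.09 (limma adjusted p = 0.000295 and 0.000971). The difference of LPS/HI from Sham was 0.26 ± 0.08 (adjusted p = 0.0561), which passed without Sham replicate 5, LPS replicate 5 or NaCl/HI replicate 4.

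Ifi35, which acts in innate immune signalling, read 9.76, 9.73, 9.67, 9.74 and 9.48 in LPS. It read 9.37, 9.49 and 9.56 in Sham, 9.42, 9.53 and 9.65 in NaCl/HI and 9.46, 9.52 and 9.62 in LPS/HI. LPS libraries other than replicate 5 lay above all others, and the difference from Sham was 0.20 ± 0.05 (limma adjusted p = 0.0156). The call was lost with the replicate number as a block (limma adjusted p = 0.0562) and by the exact Wilcoxon test (adjusted p = 0.143). Adar, which edits adenosine in double-stranded RNA, was 0.14 ± 0.04 above Sham in LPS without overlap (adjusted p = 0.0288), a call lost without Sham replicate 2 or 4 or LPS replicate 1 or 4. Ifi44l was 0.34 ± 0.10 higher (adjusted p = 0.0211), lost without LPS replicate 1. Ifi44, Xaf1, Rtp4 and Sp100 passed by limma in no comparison, with LPS minus Sham between 0.09 and 0.31. Sp100, whose LPS libraries all lay above Sham, was called there by the exact Wilcoxon test (0.12, adjusted p = 0.0312, against 0.141 by limma). Rtp4, at 0.31 ± 0.11, had an adjusted p of 0.0502. Without LPS replicate 5 Rtp4 was 0.38 (adjusted p = 0.0151) and Xaf1 0.25 (adjusted p = 0.019) above Sham. Reads of near-identical copies may have been split in counting, so Oas1a, Oasl, Oasl2, Mx1, Mx2, Ifit2, Ifit3, Ifitm3, Ifi27, Gbp2 and Gbp5 carry that uncertainty.

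The libraries numbered 1 to 12 and 13 to 23 in the labels, the former holding replicates 1 to 3 of each group and the latter the rest, were compared apart. Nothing in the labels calls them batches. Of the 40 genes, the difference from Sham had the same sign in both sets for 32 in LPS, 30 in NaCl/HI and 33 in LPS/HI. The same held for 24 in LPS/HI set against LPS alone and 28 in LPS set against NaCl/HI. The median difference of the 40 genes was 0.28 and 0.11 for LPS against Sham, 0.12 and 0.03 for NaCl/HI and 0.15 and 0.15 for LPS/HI. It changed sign between the sets in LPS against NaCl/HI, at 0.12 and -0.02, and in LPS/HI against LPS, at -0.06 and 0.04.

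Genes upstream of the 40 were counted in the same fit, where 10.2% of all genes were called higher in LPS than in Sham and 5.3% in LPS/HI. Of 10 listed ligands 6 were in the table, and only Ifna4 passed, 0.07 ± 0.02 lower in LPS and 0.08 ± 0.02 lower in LPS/HI, both against Sham (limma adjusted p = 0.0131 and 0.0102). The log2 of the summed level of the 6 ligands was only 3.55 to 3.66 in Sham, where library medians over all genes were at least 7.75. It was 3.55 to 3.66 in LPS and 3.59 to 3.71 in LPS/HI, so the sums overlapped. Ifna4 lay below these sums, and such small shifts of a weakly expressed gene do not show a fall of interferon ligands. Of 14 signalling genes, 4 rose in LPS, which were Irf8 (0.14), Ifngr2, a chain of the interferon gamma receptor (0.25 ± 0.04, adjusted p = 0.00042), the kinase Tyk2 (0.17) and the phosphatase Ptpn6 (0.18). In LPS/HI 3 rose, Ifngr2 (0.19), the inhibitor Socs3 (0.48) and Stat3 (0.16). Irf8 was 0.17 lower in LPS/HI than in LPS, where 0.719% of all genes were called lower. Ifngr2 and Socs3 were higher in LPS than in NaCl/HI by 0.20 and 0.55, where 5.32% of all genes were called higher. Of 20 genes that lead to interferon induction, 3 rose in LPS, which were the LPS co-receptor Cd14 (0.48), the chaperone Unc93b1 of endosomal Toll-like receptors (0.16) and Sting1 (0.16). Cd14 alone rose in LPS/HI (0.58), 1 of 20 and near the share of all genes. Tbk1 and Myd88 were higher in LPS than in NaCl/HI, both by 0.15, where 5.32% of all genes were called higher.

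A longer list of 59 further interferon-stimulated genes was counted in the same way. In LPS 20 rose and 1 fell against Sham, where 10.2% and 7.56% of all genes did, and the median was 0.17. Ifi30, a thiol reductase of antigen processing, rose by 0.52 ± 0.06 (limma adjusted p = 2.09e-06), Tapbp, which loads peptide on MHC class I, by 0.54 ± 0.07 (adjusted p = 1.1e-05) and Sp110 by 0.30 ± 0.04 (adjusted p = 2.42e-05), while Ifit1 fell by 0.34. In LPS/HI 11 rose and 0 fell, where 5.3% and 3.48% of all genes did, led by Tapbp (0.35), Ifitm1 (0.55) and Ifi30 (0.22). Against LPS, 3 were lower in LPS/HI, with 0.719% of all genes, which were Ifi30 (-0.30), Ifi47 (-0.30) and Gbp4 (-0.33). Against NaCl/HI, 11 were higher and 2 lower in LPS, with 5.32% and 3.66% of all genes, the latter being Tnfsf10 (-0.30) and Ifit1 (-0.27). The interaction passed for 3, all negative, with 0.719% of all genes: Ifi30 (-0.47 ± 0.08, adjusted p = 0.0121), Parp10 (-0.30 ± 0.06, adjusted p = 0.0316) and Tapbp (-0.41 ± 0.09, adjusted p = 0.0361). NaCl/HI against Sham and LPS/HI against NaCl/HI gave 0 calls in these 4 lists by limma at an adjusted p under 0.05. At an unadjusted p under 0.05 limma gave 16 higher and 7 lower of 99 genes in the former, where 7.33% and 7.47% of all genes were, and 14 higher and 2 lower in the latter, with 6.47% and 4.17% of all genes.

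Some markers of microglia and of other cell types were called in the same comparisons, and their part in the results above was not tested. In bulk libraries, fewer cells of a type and less RNA per cell cannot be told apart. In LPS against Sham, where 10.2% of all genes were called higher and 7.56% lower, 6 of 14 microglial genes were lower, among them P2ry13 and Sall1. The log2 of the summed level of the list lay at 17.87 to 18.07 in Sham and 17.77 to 17.89 in LPS. Of 8 monocyte genes, Plac8 rose by 1.17 ± 0.13 (limma adjusted p = 2.86e-06) and F10 also rose, while summed levels overlapped at 13.45 to 14.05 in Sham and 13.75 to 13.94 in LPS. Of 10 genes of border-associated macrophages 1 rose and 3 fell, led by Lyve1 (-0.83). Their summed level was 15.32 to 16.11 in Sham and 15.04 to 15.48 in LPS. Of 16 neutrophil genes 1 rose and 2 fell, near the share of all genes, with Ngp at -1.07. Of 11 endothelial genes 1 rose and 4 fell, of 7 astrocyte genes 2 rose and of 8 neuronal genes 4 fell. None of 10 T and NK cell genes and none of 8 oligodendrocyte genes passed by limma or the exact Wilcoxon test, with 2 of the former lower and 1 of the latter higher at an unadjusted limma p under 0.05.

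In LPS/HI against Sham, where 5.3% of all genes were called higher and 3.48% lower, 7 of 16 neutrophil genes rose, by 0.72 for Retnlg to 1.18 for S100a9. The summed level of the list was 12.58 to 13.63 in LPS/HI and 12.26 to 12.64 in Sham. It was 12.54 to 12.74 in LPS and 12.39 to 12.95 in NaCl/HI. Of the other lists, 2 microglial genes, 2 neuronal genes and Lyve1 fell, 2 endothelial genes, 2 monocyte genes and Gfap of astrocytes rose, and of T and NK cell genes Nkg7 rose and Lck fell. In LPS/HI against LPS, where Ifitm3 was called and 1.22% of all genes were higher and 0.719% lower, the neutrophil genes Padi4 and Mmp9 and the endothelial genes Vwf (0.35), Flt1 (0.31) and Esam (0.38) were higher. In the same comparison Olfml3 and Stmn2 were higher and Plac8 lower (-0.72). In LPS against NaCl/HI, with 5.32% of all genes higher and 3.66% lower, 6 of 14 microglial genes were lower. Of the monocyte list Plac8 was higher by 1.26 and Fn1 lower, with a median of -0.11. Of the other lists, Ngp, Lyve1, Stab1, Vwf, Esam, Stmn2 and Nefl were lower and Cbr2, Pecam1, Aldoc and Aldh1l1 higher. In LPS/HI against NaCl/HI, where no member and 0.153% of all genes were called higher, Lcn2 of the neutrophil list was higher. Whether Ifitm3 or the other called genes came from microglia or from the cells these markers name cannot be told apart in these libraries.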

How the data were processed

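The members and the gene lists were chosen with earlier results of these data known. Per the labels and the methods, the authors quantified reads with kallisto 0.48.0 on mRatBN7.2, imported them into DESeq2, left out genes with fewer than 10 counts over all samples, transformed the values with its rlog and took out 3 surrogate variables. The deposited values are log2 values on that scale, from -1.35 to 23.4. Taking out these variables narrowed the replicates within their groups, so p-values can be too low. Whether it also moved the group means could not be checked, since no uncorrected values enter this account.

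Samples were grouped by their titles. All 6 pairs of groups and the interaction were tested in 1 fit of the 23 samples with limma 3.58.1 (R 4.3.3), with a variance trend and 16 residual degrees of freedom in place of 19. P-values were adjusted by the Benjamini-Hochberg method over all 20301 genes, and an adjusted p under 0.05 was called, with no threshold on the fold. Intervals are at 95%. An exact Wilcoxon rank-sum test, two-sided, was adjusted the same way. All 5 LPS values and the lowest, median and highest of each group of 6 are given for up to 12 called members with the smallest adjusted p and for the receptors, transcription factors and Isg15, and Ifitm3 was added after its values were seen. Promoters were read with Python 3.11.15 from RefSeq sequences of GRCr8, another build than that of the counting, and figures drawn with matplotlib 3.10.9. Alternatives were other degrees of freedom, no variance trend, a block of replicate number, the set of library numbers (1 to 12 or 13 to 23) as a factor, median centring, quantile normalization, leaving out the lowest 25% of genes, fits of only the groups compared, the Wilcoxon test, a fold above 2, and leaving out each library.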

Additional observations from a re-analysis of the deposited data

Results flagged for a closer look

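Among 164 sets of values, 40 genes and the mean of the 40 in each of 4 groups, 6 had a sample whose gap to its nearest neighbour was large for the range of the group (Dixon's 95% critical value). This is 3.66%, and chance alone gives about 1 in 20. In Sham, Irf9 of replicate 1 was 10.20 with the next library at 10.01, and Oas2 of replicate 5 was 7.77 with the next at 7.05. In LPS, replicate 5 was low for Oas1a (6.16, next 6.61) and Mx2 (8.40, next 9.29) and high for Sp100 (11.76, next 11.62). In LPS/HI, Gbp5 of replicate 6 was 9.75 with the next at 9.60. No gene was past the threshold for a difference of its response between groups, which was tested by the interaction of LPS with HI.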

How the results depend on the processing

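Depth is unknown, and with 5 to 6 libraries a group a single library could decide a call. No called result changed its direction. Over the 32 called results, 249 values under other settings stayed past the threshold and 39 did not, including those under a Wilcoxon test that no gene could pass, and 626 values with 1 library left out stayed and 110 did not. Dhx58, Parp9, Gbp2, Gbp5 and Ifi27 in LPS against Sham, and Irf7, Oasl and Gbp2 in LPS/HI against Sham, passed in all of them, apart from the fold threshold. With 19 residual degrees of freedom, 23 members were called in LPS against Sham, 1 in NaCl/HI against Sham, 2 in LPS/HI against NaCl/HI and 1 in the interaction. In fits of only the groups compared these counts were 20, 1 and 2, with 17 in LPS/HI against Sham. LPS/HI against LPS gave 0 with no variance trend and with quantile normalization. By the Wilcoxon test it gave 0, as did LPS against NaCl/HI, but the smallest adjusted p of any gene was 0.104 and 0.0593, so these counts say nothing about the calls. A fold above 2 left 0 in every comparison. The cause of the other changes was not tested.

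With 1 library left out, the count ran from 9 to 18 in LPS against Sham, 0 to 5 in NaCl/HI against Sham, 5 to 12 in LPS/HI against Sham, 0 to 1 in LPS/HI against LPS, 0 to 1 in LPS/HI against NaCl/HI, 5 to 11 in LPS against NaCl/HI and 0 to 1 in the interaction. With the replicate number as a block, 6 members were called in LPS/HI against Sham, 0 in LPS/HI against LPS and 5 in LPS against NaCl/HI. Shares of all genes are not given for the block, nor for leave-outs other than those given above with a share. In the deposited values, replicates with the same number did not deviate together as a rule. Of 33 pairs, 9 had a correlation over 0.1 and 10 under -0.1, with a range from -0.475 to 0.47. The surrogate variables had been taken out before, so this check cannot show whether the numbers paired the samples earlier. The numbers are not taken to pair the samples.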
